A study of Homo sapiens with 38 samples.

Results

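The RNA of supermeres was set against that of small extracellular vesicles (sEV), both pelleted by ultracentrifugation (UC) from the medium of 1 human colorectal cancer cell line, DiFi, grown in 3 dimensions. Supermeres are small particles without a membrane, and sEV are membrane-bound vesicles. The comparison took the libraries labelled 3D UC supermere B and C and 3D UC sEV A, B and C, which are 5 of the 38 libraries of the study. A 6th library, supermere A, held 46 counts and is shown only as near-empty. No measured value other than that depth chose the libraries.

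The study isolated vesicles, exomeres and supermeres from DiFi cells in flat (2D) and hollow-fibre bioreactor (3D) culture and sequenced their small RNA. Both compared groups carried the same line, the same bioreactor culture and the same AlkB treatment, which removes base methylations that block reverse transcription. For 3D culture the labels give 4 medium pools of about 400 mL, with 60 mL per isolation after a 0.22 µm filter. The supermere pellet was spun at 367000 g for 16 h from the supernatant left by the exomere spin, and no wash of it is named. The sEV pellet was spun first, at 167000 g for 4 h, and was washed. The labels do not tie replicate letters to pools, so the spread between libraries of a group may be technical. The main tests took this spread from a fit of 37 libraries in 11 groups, and not from the compared libraries alone. Counting error was small beside the spread between the compared libraries. The smallest class share, misc_RNA in supermere C, was 0.0114%, with a 95% Wilson interval of 0.0104% to 0.0125%.

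Small RNA outside cells is a mixture. MicroRNAs (miRNAs) sit in Argonaute proteins and repress messenger RNAs through a short seed, while Y RNAs are hairpins bound by the Ro60 protein and vault RNAs belong to the vault particle. Transfer RNA (tRNA) is often cut at its anticodon into fragments, and the spliceosomal and small nucleolar RNAs (snRNAs and snoRNAs) work in the nucleus. Sequencing gives shares of a library and not amounts, so less RNA of a class and more RNA of another class cannot be told apart, nor can fewer particles and less RNA per particle.

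Values are given in letter order, supermere B and C and then sEV A, B and C. Levels are in CPM, which are counts scaled to a common library total, and shares within a class are percents of the counts of that RNA class in the library. The libraries held 2071672 and 4137859 counts in supermeres, against 3661132, 4146361 and 2889572 counts in sEV. In the near-empty supermere A, 31 of the 46 counts were Y RNA and 21 of them were RNY1. Supermeres had a count in 2360 and 1306 features, against 4618, 6857 and 6220 features in sEV. The Pearson correlation of log2(CPM + 1) across the 8979 features tested on library totals was 0.796 between the supermere libraries and 0.955 between sEV B and C. sEV A stood apart from the other sEV libraries, at 0.910 with sEV B and 0.908 with sEV C. Of 8 miRNAs that mark colorectal epithelium, such as miR-192, miR-194 and the miR-200 family, none was at 0 in any of the 5 libraries. Their summed level was 1009.8 and 99.1 CPM in supermeres, against 102725, 53269 and 59833 CPM in sEV.

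The sequences that carry the main differences are shown here, 5′ to 3′, with coordinates on GRCh38. Capitals mark the seed (bases 2 to 8) of miRNAs, which is the stretch that pairs with targets. The first set took a larger share of miRNA in supermeres than in sEV.
miR-193a-5p: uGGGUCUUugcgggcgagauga
miR-423-5p: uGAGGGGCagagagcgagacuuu
miR-335-5p: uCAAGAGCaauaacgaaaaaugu
miR-484: uCAGGCUCaguccccucccgau
miR-92a-3p: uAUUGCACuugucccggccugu
miR-320b: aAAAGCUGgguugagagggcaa
miR-22-3p: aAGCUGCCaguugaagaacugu
miR-375-3p: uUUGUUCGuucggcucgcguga
These miRNAs lie at chr17:31560016-31560037, plus strand (miR-193a-5p), chr17:30117095-30117117, plus strand (miR-423-5p), chr7:130496126-130496148, plus strand (miR-335-5p) and chr16:15643301-15643322, plus strand (miR-484). Others lie at chr13:91351361-91351382, plus strand (miR-92a-3p), chr1:116671787-116671808, plus strand (miR-320b), chr17:1713914-1713935, minus strand (miR-22-3p) and chr2:219001648-219001669, minus strand (miR-375-3p). On the same strand, GENCODE v29 places miR-335 in an intron of MEST, miR-423 in an exon of a transcript of NSRP1, miR-484 in one of NDE1, and miR-92a and miR-22 in the host transcripts MIR17HG and MIR22HG. No same-strand host was annotated for miR-193a, miR-320b and miR-375.

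The second set took a smaller share in supermeres. Sequences with u are RefSeq mature sequences (GRCh38.p14), and the one with t is as the deposited table gives it.
miR-135b-5p: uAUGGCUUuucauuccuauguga
miR-186-5p: cAAAGAATtctccttttgggct
miR-30c-5p: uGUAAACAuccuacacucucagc
miR-200c-3p: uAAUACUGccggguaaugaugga
miR-200b-3p: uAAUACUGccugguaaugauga
miR-429: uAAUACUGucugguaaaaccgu
let-7a-5p: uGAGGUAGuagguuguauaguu
miR-17-5p: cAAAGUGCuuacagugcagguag
miR-20a-5p: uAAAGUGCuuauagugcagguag
miR-200b, miR-200c and miR-429 share 1 seed, and miR-17 and miR-20a share another. They lie at chr1:205448361-205448383, minus strand (miR-135b-5p, intron of LEMD1), chr1:71067681-71067702, minus strand (miR-186-5p, intron of ZRANB2), chr1:40757300-40757322, plus strand (miR-30c-5p, intron of NFYC) and chr12:6963742-6963764, plus strand (miR-200c-3p, intron of MIR200CHG). Further positions are chr1:1167160-1167181, plus strand (miR-200b-3p), chr1:1169055-1169076, plus strand (miR-429), chr9:94175962-94175983, plus strand (1 of the let-7a-5p loci, intron of a lincRNA), chr13:91350618-91350640, plus strand (miR-17-5p) and chr13:91351072-91351094, plus strand (miR-20a-5p). The last 2 lie in MIR17HG, as miR-92a does.

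Among longer RNAs, the pair of Y RNAs that filled the supermere libraries begins alike, and capitals mark the first bases that both share. The pair of vault RNAs that were nearly or wholly lacking in supermeres also begins alike, marked in the same way. In 3 tRNAs whose share within tRNA differed between the groups, capitals mark the anticodon.
RNY1: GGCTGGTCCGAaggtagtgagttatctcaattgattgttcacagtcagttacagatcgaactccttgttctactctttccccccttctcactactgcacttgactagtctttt
RNY4: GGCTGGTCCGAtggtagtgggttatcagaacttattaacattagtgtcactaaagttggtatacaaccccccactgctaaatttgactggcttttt
VTRNA1-1: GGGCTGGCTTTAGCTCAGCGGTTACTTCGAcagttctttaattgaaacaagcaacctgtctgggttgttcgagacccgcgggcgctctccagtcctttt
VTRNA1-2: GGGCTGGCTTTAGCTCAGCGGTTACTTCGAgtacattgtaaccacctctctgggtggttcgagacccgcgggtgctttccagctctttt
tRNA-Lys-TTT: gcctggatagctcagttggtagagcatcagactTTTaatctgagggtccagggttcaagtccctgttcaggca
tRNA-Ala-TGC: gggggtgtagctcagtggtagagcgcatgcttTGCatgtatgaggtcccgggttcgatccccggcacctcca
tRNA-Gly-GCC: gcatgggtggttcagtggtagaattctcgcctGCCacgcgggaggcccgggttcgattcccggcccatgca
RNY1 (chr7:148987136-148987248, minus strand) and RNY4 (chr7:148963315-148963410, plus strand) are neighbours on chromosome 7, and VTRNA1-1 (chr5:140711275-140711373, plus strand) and VTRNA1-2 (chr5:140718925-140719013, plus strand) on chromosome 5. The tRNA sequences are those of 1 of the gene copies that the table sums, at chr16:73478317-73478389, minus strand (Lys-TTT), chr6:28789770-28789841, minus strand (Ala-TGC) and chr1:161443304-161443374, plus strand (Gly-GCC).

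Y RNA filled the supermere libraries, and most other classes took a smaller share there than in sEV. Y RNA made up 80.4% and 93.6% in supermeres, against 13.4%, 23.6% and 24.3% in sEV (log2 fold change 2.09, SE 0.73, edgeR adjusted p = 0.00682), and the groups did not overlap. The means were 87.0% ± 9.31 in supermeres (SD, n = 2) and 20.4% ± 6.11 in sEV (SD, n = 3). Of 10 RNA classes, 7 passed the test on class sums (70.0%), 1 higher (10.0%) and 6 lower (60.0%) in supermeres. The exact permutation test over the 10 ways of assigning 5 libraries cannot fall below p = 0.1, so it passes no class.

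The 6 lower classes were all but Y RNA, the mitochondrial tRNAs, the endogenous retroviral elements (ERV) and the snRNAs. miRNA made up 7.27% and 1.62% in supermeres, against 39.9%, 23.4% and 24.9% in sEV (log2 fold change -2.73, SE 0.84, edgeR adjusted p = 0.00233), and without supermere C the difference was -2.02 with an edgeR adjusted p of 0.0886. Ribosomal RNA (rRNA), which builds the ribosome, made up 0.483% and 0.799% in supermeres, against 21.8%, 20.4% and 15.4% in sEV (log2 fold change -4.90, SE 0.94, edgeR adjusted p = 4.19e-06). tRNA made up 0.444% and 0.358% in supermeres, against 4.27%, 11.1% and 15.1% in sEV (log2 fold change -4.66, SE 1.23, edgeR adjusted p = 0.000371), with sEV A the lowest of the sEV libraries. In these 3 classes every supermere library lay below every sEV library.

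Vault RNA and the RNA of the signal recognition particle (7SL) belong to the class misc_RNA, which showed the widest gap. It made up 0.0495% and 0.0114% in supermeres, against 3.45%, 6.79% and 7.92% in sEV (log2 fold change -7.64, SE 1.52, edgeR adjusted p = 5.57e-05). Long noncoding RNA (lncRNA) entries made up 0.296% and 0.127% in supermeres, against 1.07%, 4.75% and 4.5% in sEV (log2 fold change -4.03, SE 0.82, edgeR adjusted p = 7.59e-06). In sEV 51.7%, 82.6% and 84.5% of the lncRNA counts were 1 entry that spans the Y RNA gene RNY5, so the class difference rests largely on it. snoRNA, which guides modification of rRNA, made up 0.299% and 0.055% in supermeres, against 2.3%, 1.86% and 1.44% in sEV (log2 fold change -3.40, SE 0.78, edgeR adjusted p = 5.57e-05). The ranges of the 2 groups were apart in all 3 classes.

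The 3 remaining classes did not pass and their ranges overlapped. snRNA made up 10.4% and 3.26% in supermeres, against 13.7%, 7.7% and 6.11% in sEV (log2 fold change -0.42, SE 1.10, edgeR adjusted p = 0.701). Mitochondrial tRNA made up 0.181% and 0.149% in supermeres, against 0.0338%, 0.186% and 0.152% in sEV (log2 fold change 0.41, SE 0.72, edgeR adjusted p = 0.63). ERV made up 0.169% and 0.0342% in supermeres, against 0.124%, 0.218% and 0.185% in sEV (log2 fold change -0.79, SE 0.89, edgeR adjusted p = 0.468). Without supermere C the snRNA value was 0.18, and without sEV A that of mitochondrial tRNA was -0.0334, so the sign of each rests on 1 library. The ERV value was -2.36 without supermere B and -0.0580 without supermere C, with edgeR adjusted p of 0.0776 and 0.957.

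**Figure D1:**
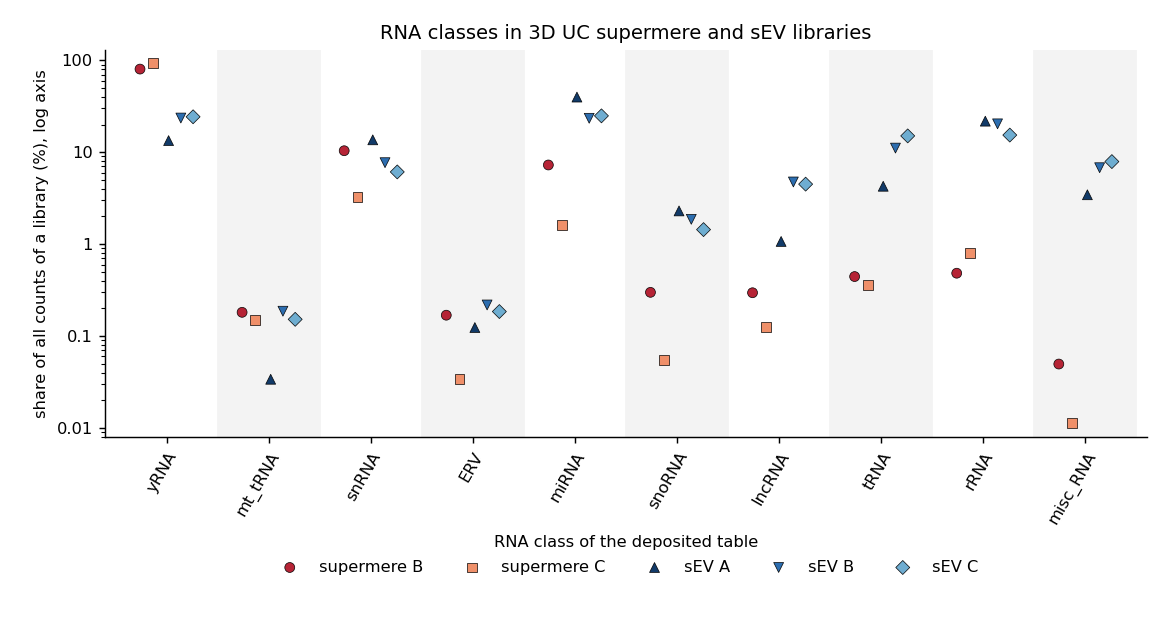
Share of each RNA class in the library (percent of all counts, log axis), 1 point per library, with supermere B and C left of sEV A, B and C in each class. Y RNA stands at 80.4% and 93.6% in supermeres and at 13.4% to 24.3% in sEV, while rRNA, tRNA and misc_RNA lie far lower in supermeres.

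At the level of single features, 362 of 8979 tested features passed on library totals (4.03%), 5 higher (0.0557%) and 357 lower (3.98%) in supermeres. The median log2 fold change over all 8979 was -2.46, and -0.98 with features at 0 set to their bound. Other scalings moved that median and the split: 30 higher and 432 lower with TMM factors (median -3.22), 167 higher and 134 lower with RLE factors (median -1.55), and 236 higher and 247 lower with DESeq2 (median 0.00). No named call turned its direction under these scalings. Of the 5 higher features, 4 are copies of Y RNA or 7SL RNA and 1 is a miRNA.

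RNY1, 1 of the human Y RNA genes, was the most abundant feature of both supermere libraries. Its level was 453348 and 519404 CPM in supermeres, against 81337, 96572 and 95221 CPM in sEV (log2 fold change 2.42, SE 0.67, edgeR adjusted p = 0.011). The groups did not overlap, and the call was lost without supermere C (0.113), sEV A (0.0689) or sEV C (0.0502), as edgeR adjusted p. RNY4, a second Y RNA gene, reached 77775 and 84451 CPM in supermeres, against 10393, 29890.3 and 31832 CPM in sEV, which do not overlap, and it did not pass (log2 fold change 1.75, SE 0.70, edgeR adjusted p = 0.168). Its pseudogenes RNY4P10 and RNY4P7 and 1 Y_RNA entry carry nearly the same values, and entries that share reads with copies are uncertain one by one.

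RNY4P20, a pseudogene of RNY4, was at 22729.5 and 13598 CPM in supermeres, against 2177, 2881 and 2913 CPM in sEV (log2 fold change 2.77, SE 0.77, edgeR adjusted p = 0.011). The call was lost without supermere B (edgeR adjusted p = 0.186), sEV A (0.0742) or sEV B (0.0501). A Y_RNA copy named only by its identifier ENSG00000201343.1 was at 263 and 284 CPM in supermeres, against 19.6, 24 and 21.9 CPM in sEV (log2 fold change 3.65, SE 1.18, edgeR adjusted p = 0.0487), and leaving out any single library lost the call, with edgeR adjusted p of 0.152 to 0.343. Supermere B held more RNY4P20 than supermere C.

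Within the Y RNA class, RNY1 did not pass and RNY3 was lower. As a share of Y RNA, RNY1 held 56.4% and 55.5% in supermeres, against 60.7%, 41% and 39.1% in sEV (log2 fold change 0.25, SE 0.48, edgeR adjusted p = 1). RNY4 with its 3 near-identical entries held 38.9% and 36.1% in supermeres, against 29.9%, 50.0% and 51.6% in sEV. Both ranges overlap. RNY3 was at 6.18 and 3.21 CPM in supermeres, against 221, 159 and 169 CPM in sEV, and its share of Y RNA was lower (log2 fold change -7.50, SE 1.16, edgeR adjusted p = 2.23e-08), a call that held without any single library. Of 291 Y RNA entries tested within the class, 0 were higher and 114 lower in supermeres, 2 of them with at least 0.1% of the class in 1 group. Among all features 2.18% were higher and 3.13% lower within class.

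Vault RNAs were nearly or wholly lacking in supermeres. VTRNA1-1, which binds the autophagy receptor p62, was at 5.79 and 0.242 CPM in supermeres, against 25734, 52131 and 60609 CPM in sEV (log2 fold change -13.97, SE 1.99, edgeR adjusted p = 1.37e-06). VTRNA1-2 was at 0 CPM in both supermere libraries, against 6445, 11836 and 14255 CPM in sEV, which is at least 22448-fold lower in supermeres, taking 3 counts over the 2 libraries as the floor. VTRNA1-3 was at 0 CPM in both supermere libraries, against 474, 1065 and 1319 CPM in sEV (at least 1972-fold lower). The pseudogene VTRNA3-1P was at 0 CPM in both supermere libraries, against 1438, 1583 and 1666 CPM in sEV (at least 3234-fold lower). All 4 vault RNAs tested were lower, beside 3.98% of all features on library totals, and no call was lost in any alternative run.

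Of 82 tested entries named RN7SL 2 were lower and 0 higher on library totals, and of 41 named RN7SK 1 was lower and 0 higher. Both shares lie below the 3.98% of all features that were lower. RN7SL2, a gene for the RNA core of the signal recognition particle that brings secreted proteins to the membrane, was at 2.99 and 8.94 CPM in supermeres, against 82.1, 485 and 484 CPM in sEV (log2 fold change -5.86, SE 1.37, edgeR adjusted p = 0.00111). That call was lost without supermere B (0.144) or C (0.0548), as edgeR adjusted p, and with RLE factors (0.387) or DESeq2 (0.159). RN7SK, which holds the elongation factor P-TEFb inactive, was at 11.1 and 19.3 CPM in supermeres, against 78.9, 639.6 and 488 CPM in sEV (log2 fold change -4.72, SE 1.20, edgeR adjusted p = 0.00376), and its call was lost without supermere B (0.197) or C (0.125), with RLE scaling factors (0.857) and with DESeq2 (0.381). Supermeres lay below sEV in both, with sEV A the lowest of the vesicle libraries. One 7SL copy, the Metazoa_SRP entry ENSG00000283438.1, was higher at 229 and 9.91 CPM in supermeres, against 1.09, 0.0241 and 0 CPM in sEV (log2 fold change 8.25, SE 1.91, edgeR adjusted p = 0.00095), and without supermere B the change was 4.66 (edgeR adjusted p = 0.552).

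Ribosomal RNA in these libraries was mostly 28S. The 28S entry was at 3725 and 5816 CPM in supermeres, against 207836, 162924 and 124026 CPM in sEV (log2 fold change -5.11, SE 0.81, edgeR adjusted p = 8.89e-08), so the groups were far apart. With RLE factors or DESeq2 the change was -1.60 and did not pass (edgeR adjusted p = 0.872, DESeq2 adjusted p = 0.295). The 18S entry was at 943 and 1994 CPM in supermeres, against 4223, 6649 and 7144 CPM in sEV and did not pass (log2 fold change -2.03, SE 0.80, edgeR adjusted p = 0.161), although the groups did not overlap. RNA5S1, a 5S gene, was at 42.3 and 86.4 CPM in supermeres, against 2128, 17260.3 and 9545 CPM in sEV (log2 fold change -7.22, SE 1.17, edgeR adjusted p = 1.84e-07). Of 17 rRNA entries tested, 9 were lower and 0 higher on library totals, and 1 was lower within the class. Over all features 3.98% were lower on library totals and 3.13% within class. A count of 1 among 17 entries is too small to set against the share within class.

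**Figure D2:**
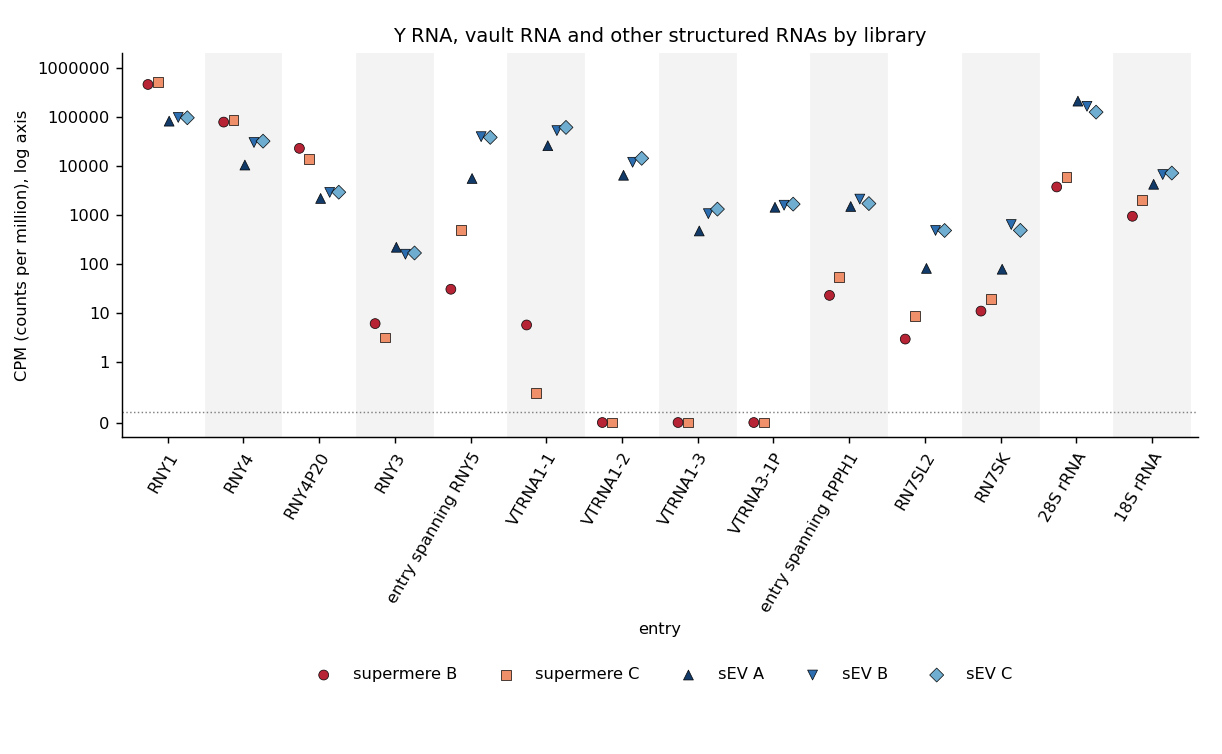
Levels of named structured RNAs in the 5 libraries (CPM on a log axis), 1 point per library, with supermere B and C left of sEV A, B and C. Points under the dotted line are at 0. RNY1 and RNY4 lie above sEV in both supermere libraries, and vault RNAs, RNY3, RN7SL2, RN7SK and 28S rRNA are lower, with VTRNA1-2 at 0 in both supermere libraries.

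Much of the lncRNA class in sEV was 1 entry that spans another small RNA. ENSG00000286171 (chr7:148941483-148941638) spans RNY5, the remaining human Y RNA gene, and was at 30.9 and 487 CPM in supermeres, against 5538, 39261 and 38016 CPM in sEV (log2 fold change -6.74, SE 1.07, edgeR adjusted p = 1.2e-07). Of all lncRNA counts it held 1.04% and 38.4% in supermeres, against 51.7%, 82.6% and 84.5% in sEV. Reads of RNY5 and of the lncRNA entry cannot be told apart. ENSG00000259001 (chr14:20343048-20343685) spans RPPH1, the RNA of ribonuclease P that trims tRNA precursors, and was at 23.2 and 55.6 CPM in supermeres, against 1492, 2108 and 1709.6 CPM in sEV (log2 fold change -5.49, SE 1.15, edgeR adjusted p = 0.000157). RLE factors and DESeq2 lost both calls, with edgeR adjusted p of 0.389 and 0.279 and DESeq2 adjusted p of 0.0602 and 0.159.

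Because those entries set the lncRNA total, the class share and the within-class counts of lncRNA depend on them. The class share was not tested without them, and the Y RNA class holds no entry named RNY5. As deposited, 164 of 6455 lncRNA entries were higher and 2 lower as shares of lncRNA, beside 2.18% and 3.13% over all features. With both entries left out of the class total, a setting chosen after seeing the data, 14 were higher and 6 lower. GAS5, a host transcript of snoRNAs, was at 1.93 and 0 CPM in supermeres, against 399, 365 and 299 CPM in sEV. The number of lncRNA calls thus depends on the choice of total.

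Within their own class, 468 of 8822 tested features passed (5.3%), 192 higher (2.18%) and 276 lower (3.13%). The median log2 fold change was -1.82. Setting those 2 entries aside left 322 calls, 41 higher and 281 lower. Of the 192 higher features 164 were lncRNA, so the 2.18% set beside other counts rests largely on lncRNA entries. The class misc_RNA was not tested this way, since supermere C held 471 counts of it.

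tRNA was lower as a class, and its makeup differed. On library totals 32 of 49 nuclear tRNA families were lower and 0 higher, beside 3.98% lower and 0.0557% higher over all features. tRNA-Gly-GCC, often seen outside cells as a 5′ fragment, was at 214 and 192 CPM in supermeres, against 21571, 18934 and 18039 CPM in sEV, with no overlap. Within tRNA, 7 families passed as higher and 4 as lower in supermeres, around a median change of -0.11 (log2). Among all features 2.18% were higher and 3.13% lower within class.

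Lysine and alanine tRNAs led the supermere share. As a share of tRNA, Lys-TTT held 30.2% and 20.9% in supermeres, against 3.52%, 1.66% and 1.87% in sEV (log2 fold change 3.44, SE 1.00, edgeR adjusted p = 0.0362), and its call was lost without any 1 of the 5 libraries, at edgeR adjusted p of 0.0939 to 0.307, and with TMM factors within the class (0.0982). Ala-TGC held 15.6% and 5.17% in supermeres, against 1.46%, 0.168% and 0.177% in sEV (log2 fold change 4.11, SE 0.79, edgeR adjusted p = 1.79e-05), and that call held without any single library. The other higher families, named after their values were seen, were Ala-AGC, Ala-CGC, Cys-GCA, His-GTG and Arg-TCT. In each of these 7 families both supermere libraries lay above all sEV libraries.

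Glycine, aspartate, glutamate and valine tRNAs led the other way. Gly-GCC held 4.82% and 5.35% in supermeres, against 50.5%, 17.1% and 12% in sEV (log2 fold change -2.38, SE 0.57, edgeR adjusted p = 0.00204), and the call was lost without sEV A (edgeR adjusted p = 0.137), supermere B (0.103) or supermere C (0.0621). sEV A held far more of it than the other sEV libraries. Asp-GTC held 3.96% and 9.96% in supermeres, against 21.8%, 28.1% and 24% in sEV (log2 fold change -1.82, SE 0.59, edgeR adjusted p = 0.0413), lost without any 1 library at edgeR adjusted p of 0.0558 to 1.00. Glu-TTC held 0.163% and 2.05% in supermeres, against 2.25%, 8.81% and 7.6% in sEV (log2 fold change -2.48, SE 0.68, edgeR adjusted p = 0.0105), lost without supermere B (0.99) or sEV B (0.0761) and in a fit of the 5 compared libraries alone (0.129). Of 9 tRNAs listed as cut at the anticodon, 4 were lower and 1 higher within tRNA, beside 3.13% lower and 2.18% higher over all features.

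Mitochondrial tRNAs, which serve translation inside mitochondria, did not pass as a class, and 5 of its members were lower within it. As a share of the class, serine tRNA TS2 held 49.2% and 58.7% in supermeres, against 11.1%, 6.92% and 9.2% in sEV (log2 fold change 2.58, SE 0.88, edgeR adjusted p = 0.0579). Glutamate tRNA TE held 38.8% and 31% in supermeres, against 8.96%, 7.13% and 9.13% in sEV (log2 fold change 2.05, SE 0.78, edgeR adjusted p = 0.105). Neither passed, although in each the supermere libraries lay above the sEV libraries. Valine tRNA TV held 0% and 0.113% in supermeres, against 7.59%, 35.4% and 33.3% in sEV (log2 fold change -8.62, SE 1.48, edgeR adjusted p = 7.99e-07). Histidine tRNA TH held 0% and 0.696% in supermeres, against 40.6%, 22.3% and 20.2% in sEV (log2 fold change -6.27, SE 1.20, edgeR adjusted p = 1.74e-05). Beside 2.18% higher and 3.13% lower over all features, 0 of 22 members were higher and 5 lower within the class. The top 10 of them held 99.8% and 99.4% of the class in supermeres, against 94.5%, 91.9% and 92.5% in sEV.

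Of the spliceosomal snRNAs, those of the minor spliceosome did not pass, and most tested entries of the major spliceosome were lower. RNU12, of the minor spliceosome that removes rare introns, was at 63989 and 12228 CPM in supermeres, against 83564, 8817 and 3722 CPM in sEV (log2 fold change 0.25, SE 1.57, edgeR adjusted p = 1), with sEV A and supermere B high and an overlap between groups. RNU11, also of the minor spliceosome, was at 2525 and 14765 CPM in supermeres, against 892, 7032 and 6022 CPM in sEV and did not pass (log2 fold change 0.89, SE 1.35, edgeR adjusted p = 0.766). None of the 4 minor snRNAs passed in either fit.

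Of 13 tested entries of the major spliceosome, 8 were lower on library totals and 9 within snRNA, and 0 were higher. Among all features 3.98% were lower on library totals and 3.13% within class. As a share of snRNA, RNU1-1, which pairs with the 5′ splice site, held 0.529% and 0.222% in supermeres, against 1.86%, 3.7% and 3.59% in sEV (log2 fold change -3.02, SE 0.75, edgeR adjusted p = 0.00336), and without supermere C the edgeR adjusted p was 0.184, and with TMM factors within the class it was 0.0501. RNU4-2, a partner of U6 in the tri-snRNP that was named after its values were seen, held 0.00985% and 0.00407% in supermeres, against 0.0612%, 0.374% and 0.33% in sEV (log2 fold change -5.14, SE 1.14, edgeR adjusted p = 0.000537). Its lowest sEV share, in sEV A, was above both supermere shares. RNU2-1, which recognises the branch point, was at 13040.1 and 1427 CPM in supermeres, against 15759.7, 20725 and 18013 CPM in sEV and did not pass (log2 fold change -1.33, SE 0.76, edgeR adjusted p = 0.391).

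A single C/D box snoRNA filled the snoRNA counts of supermeres. SNORD33, a guide of rRNA methylation that lies within RPL13A (chr19:49490615-49490699), made up 72% and 76.8% in supermeres, against 6.46%, 2.98% and 4.08% in sEV as a share of snoRNA (log2 fold change 4.04, SE 0.68, edgeR adjusted p = 4.37e-07). As a level it was 2150.4 and 422 CPM in supermeres, against 1485, 555 and 588 CPM in sEV, and these ranges overlap. The within-class call held without any single library. SNORD123 and ENSG00000273885 were the other higher snoRNA entries and were named after their values were seen, with SNORD123 at 5.94% and 5.98% in supermeres, against 0.532%, 0.619% and 0.699% in sEV (log2 fold change 3.27, SE 0.83, edgeR adjusted p = 0.00396).

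Of 739 snoRNA entries, 643 and 661 were at 0 in supermeres, against 345, 293 and 309 in sEV. The class held 6191 and 2274 counts in supermeres, against 84205, 77258 and 41612 counts in sEV. The part of this depth in the zeros was not tested. Over all 22549 features, 19720 and 20927 were at 0 in supermeres, against 17326, 14862 and 15468 in sEV. On library totals 81 of 297 tested snoRNA entries were lower and 0 higher, beside 3.98% and 0.0557% over all features. Within snoRNA 27 were lower and 3 higher. SNORD3A, the U3 snoRNA that takes part in cleavage of the rRNA precursor, held 0.102% and 0.651% in supermeres, against 9.2%, 5.97% and 6.2% in sEV (log2 fold change -4.32, SE 0.91, edgeR adjusted p = 0.000187). Its call was lost without supermere B, where the log2 fold change was -3.43. U3 has several near-identical copies, which carry nearly the same values. SNORD62A held 0% in both supermere libraries, against 1.1%, 3.09% and 3.01% in sEV (at least 67.7-fold lower). SNORA75, an H/ACA box guide of pseudouridylation, held 0% in both supermere libraries, against 1.8%, 1.17% and 1.54% in sEV (at least 42.4-fold lower). Of 156 C/D box snoRNAs tested within the class, 2 were higher and 21 lower, and of 97 H/ACA box snoRNAs 0 were higher and 6 lower. Over all features 2.18% were higher and 3.13% lower, and 164 of the 192 higher features were lncRNA. With the entries that span RNY5 and RPPH1 left out of the lncRNA total, 41 of 8822 features were higher. No conclusion is therefore drawn from the 2 higher C/D box members. The lower members made up more than 3.13% of the C/D box list and of the H/ACA box list.

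miRNA was 150652 and 66995 counts in supermeres, against 1460060, 971650 and 719588 counts in sEV. On library totals 123 of 577 miRNAs were lower and 1 higher, around a median change of -4.39 (log2), or -2.34 with miRNAs at 0 set to their bound. The shares over all features were 3.98% lower and 0.0557% higher. As shares of miRNA, 17 were higher and 75 lower (median -3.08, or -2.03 with bounds), beside 2.18% and 3.13% over all features. Among the 87 miRNAs with at least 0.1% of miRNA in 1 group, 12 were higher, 44 lower and 31 did not pass. Supermere miRNA was more concentrated, with 3 miRNAs making up 50% of it in each supermere library, against 7, 10 and 10 miRNAs in sEV. The largest of them was miR-1246, at 34.1% and 24.7% of miRNA, which cannot be told apart from U2 snRNA fragments. It also enters the miRNA total, and neither the concentration nor the shares were computed without it.

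The largest miRNA share in supermeres belonged to miR-1246, which did not pass. Of all miRNA counts it held 34.1% and 24.7% in supermeres, against 10.3%, 2.91% and 1.54% in sEV (log2 fold change 2.58, SE 1.16, edgeR adjusted p = 0.273), so every supermere library lay above every sEV library. Its level overlapped, at 24813 and 3998 CPM in supermeres, against 41024, 6811 and 3827 CPM in sEV. The sequence below lies whole inside RNU2-1, the U2 snRNA, among 8 GENCODE names that hold it, so U2 fragments and the miRNA cannot be told apart in these counts.
miR-1246: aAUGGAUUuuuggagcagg
Capitals mark bases 2 to 8, and the RefSeq locus is chr2:176601024-176601042, minus strand. Of the 577 tested miRNAs, 10 lie whole inside another small RNA in this way, and none of the other 9 passed.

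Among the 12 abundant miRNAs with a larger share, miR-193a-5p differed most and miR-92a-3p and miR-320a-3p held most. miR-193a-5p held 0.133% and 0.119% in supermeres, against 0.00315%, 0.000823% and 0.000695% in sEV (log2 fold change 6.30, SE 0.89, edgeR adjusted p = 8.9e-10), a call that held without any single library. It was also the only miRNA that was higher on library totals, at 96.5 and 19.3 CPM in supermeres, against 12.6, 1.93 and 1.73 CPM in sEV (log2 fold change 3.41, SE 0.99, edgeR adjusted p = 0.0192), where the call was lost without supermere B (edgeR adjusted p = 0.803), sEV B (0.161) or sEV C (0.161). miR-335-5p, encoded in the imprinted gene MEST, held 6.39% and 5.42% in supermeres, against 0.816%, 1.14% and 0.976% in sEV (log2 fold change 2.59, SE 0.59, edgeR adjusted p = 0.000759). The call of miR-335-5p was not checked by leaving out single libraries. Of the vesicle libraries, sEV A was the highest in miR-193a-5p and the lowest in miR-335-5p.

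The miR-320 family, whose precursors form without Drosha, was higher in 4 of its 5 tested members with the seed AAAGCUG, and the calls of miR-320a-3p, miR-320b and miR-320c were lost without 1 library. miR-320a-3p held 7.89% and 11% in supermeres, against 0.862%, 2.33% and 2.19% in sEV (log2 fold change 2.39, SE 0.56, edgeR adjusted p = 0.00132), and without supermere C the edgeR adjusted p was 0.0504. That of miR-320b was 0.0523 without supermere C and 0.073 without sEV A. That of miR-320c was 0.127 without supermere B, 0.079 without supermere C, 0.15 without sEV A and 0.0623 with the 5 libraries alone. miR-484, another miRNA made without Drosha, held 0.546% and 1.45% in supermeres, against 0.0738%, 0.234% and 0.204% in sEV (log2 fold change 2.55, SE 0.62, edgeR adjusted p = 0.00242). Its call was lost without supermere C (0.281) or sEV A (0.052). In the list of Drosha-independent miRNAs 5 of 6 passed as higher and 0 as lower. Their median log2 change was 2.18, beside -3.08 over the 577 miRNAs and -1.82 over all 8822 features, of which 2.18% were higher. The call of miR-320d (edgeR adjusted p = 0.032) was not checked by leaving out single libraries. The members of miR-320 differ by few bases and may share reads.

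Both arms of 1 precursor, miR-423, were higher. miR-423-5p held 3.58% and 5.93% in supermeres, against 0.417%, 0.913% and 0.826% in sEV (log2 fold change 2.73, SE 0.63, edgeR adjusted p = 0.00112). miR-423-3p held 1.1% and 2.22% in supermeres, against 0.145%, 0.396% and 0.368% in sEV (log2 fold change 2.45, SE 0.64, edgeR adjusted p = 0.00604). Without supermere C neither passed, at edgeR adjusted p of 0.0621 and 0.21. miR-22-3p, made from the transcript MIR22HG, held 2.37% and 1.88% in supermeres, against 0.479%, 0.408% and 0.443% in sEV (log2 fold change 2.26, SE 0.57, edgeR adjusted p = 0.00421), lost without supermere B (0.0835). miR-375-3p, known from endocrine and secretory epithelium, held 2.9% and 3.94% in supermeres, against 0.524%, 0.869% and 0.962% in sEV (log2 fold change 2.12, SE 0.63, edgeR adjusted p = 0.0205), and its call was lost without any 1 of the 5 libraries (0.054 to 0.185).

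**Figure D3:**
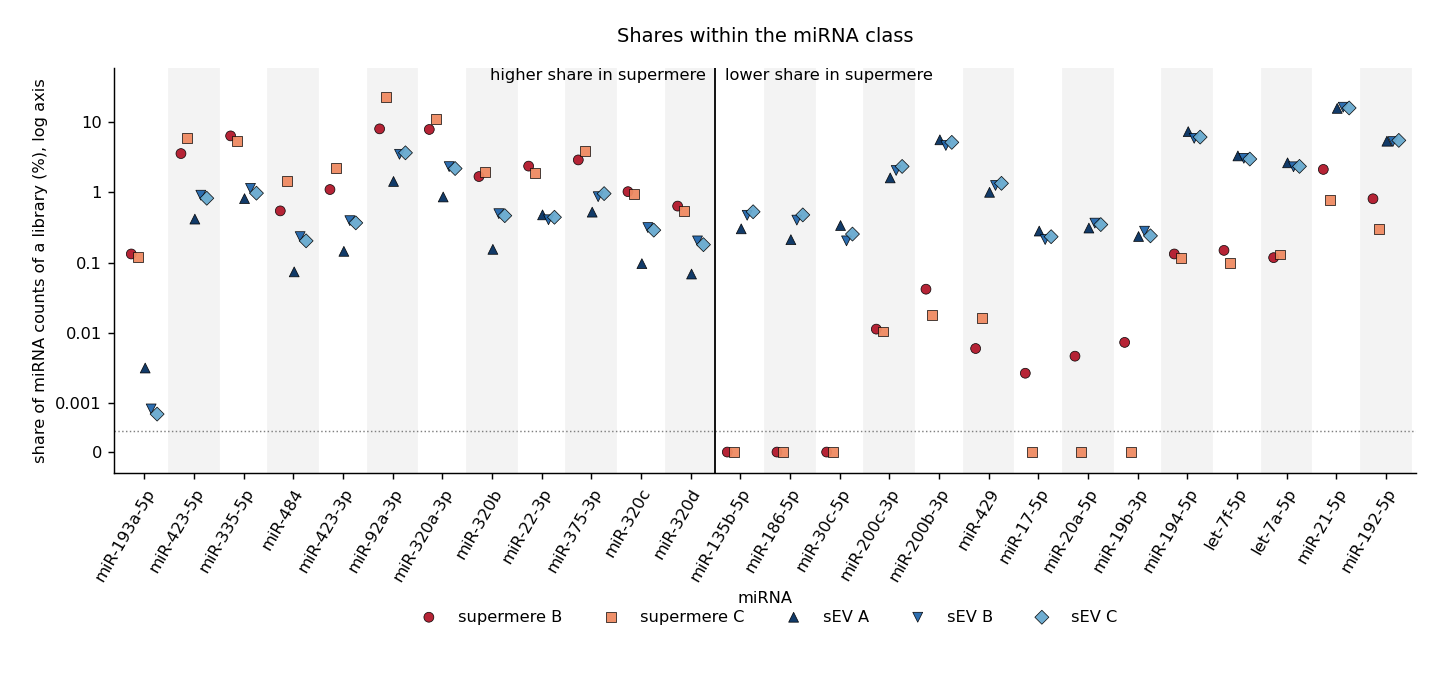
Share of named miRNAs within miRNA (percent, log axis), 1 point per library, with supermere libraries left of sEV libraries for each miRNA and points at 0 under the dotted line. miR-92a-3p, miR-320a-3p, miR-335-5p and miR-423-5p lie higher in supermeres, and miR-21-5p, miR-194-5p, miR-200b-3p and let-7f-5p lower.

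Most of the listed epithelial miRNAs took a smaller share of miRNA in supermeres. miR-200b-3p, which restrains the epithelial-to-mesenchymal transition, held 0.0418% and 0.0179% in supermeres, against 5.62%, 4.66% and 5.17% in sEV (log2 fold change -7.41, SE 0.80, edgeR adjusted p = 1.4e-16). miR-200c-3p held 0.0113% and 0.0104% in supermeres, against 1.61%, 2.05% and 2.35% in sEV (log2 fold change -7.52, SE 0.87, edgeR adjusted p = 3.64e-14). All 5 members of the miR-200 family were lower (list median -6.80, log2), beside 3.13% of all features. miR-194-5p, an intestinal miRNA, held 0.133% and 0.115% in supermeres, against 7.35%, 5.9% and 6.14% in sEV (log2 fold change -5.70, SE 0.74, edgeR adjusted p = 1.44e-11). Its cluster partner miR-192-5p held 0.812% and 0.302% in supermeres, against 5.36%, 5.3% and 5.51% in sEV (log2 fold change -3.27, SE 0.65, edgeR adjusted p = 4.82e-05). Without supermere C the edgeR adjusted p of miR-192-5p was 0.0606. The marker list of colorectal epithelium, which overlaps these families, was lower in 8 of 8 members in both fits. A second list, of intestinal epithelial miRNAs, had 5 tested members. Within miRNA 4 of them were lower and 1, miR-375-3p, was higher, and on library totals 4 were lower and 0 higher.

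miR-21 and the let-7 family were lower as well. miR-21-5p, a miRNA raised in many cancers and the largest of sEV, held 2.13% and 0.781% in supermeres, against 15.8%, 16.4% and 16% in sEV (log2 fold change -3.46, SE 0.58, edgeR adjusted p = 3.57e-07). let-7f-5p, of the let-7 family that restrains growth, held 0.149% and 0.0985% in supermeres, against 3.31%, 3.06% and 2.99% in sEV (log2 fold change -4.65, SE 0.73, edgeR adjusted p = 5.46e-08), and 8 of 9 let-7 members were lower (list median -4.29, beside -1.82 over all features). The call of let-7g-5p was lost without supermere C (edgeR adjusted p = 0.071), and that of let-7b-5p without any 1 of the 5 libraries (0.0814 to 0.433). The sEV libraries were close to each other in each of these, and no supermere library reached them.

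The miRNAs with no count in either supermere library were led by miR-135b-5p, a miRNA raised in colorectal cancer. It held 0% in both supermere libraries, against 0.303%, 0.472% and 0.53% in sEV (at least 316-fold lower). miR-186-5p held 0% in both supermere libraries, against 0.212%, 0.403% and 0.478% in sEV (at least 265-fold lower). miR-30c-5p held 0% in both supermere libraries, against 0.338%, 0.204% and 0.255% in sEV (at least 193-fold lower). A count of 0 here allows a share of up to 0.00138% of miRNA in the supermere group, from counting error only.

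miRNAs cut from 1 transcript did not move together. In the miR-17-92 cluster on chromosome 13, miR-92a-3p held 8.04% and 22.6% in supermeres, against 1.43%, 3.49% and 3.67% in sEV (log2 fold change 2.42, SE 0.55, edgeR adjusted p = 0.000813), and without supermere C its change was 1.49 (edgeR adjusted p = 0.281). Its neighbour miR-17-5p held 0.00266% and 0% in supermeres, against 0.282%, 0.213% and 0.234% in sEV (log2 fold change -7.21, SE 1.09, edgeR adjusted p = 1.2e-08). miR-20a-5p held 0.00465% and 0% in supermeres, against 0.311%, 0.365% and 0.348% in sEV (log2 fold change -6.95, SE 1.02, edgeR adjusted p = 2.42e-09). miR-19b-3p, miR-19a-3p and miR-18a-5p of this transcript were also lower. As a share of miRNA, miR-92a alone of these 6 measured members lay above sEV. Its level overlapped, at 5850 and 3655 CPM in supermeres, against 5720, 8187 and 9129 CPM in sEV. On library totals miR-92a did not pass (log2 fold change -0.69, edgeR adjusted p = 0.63).

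In the related miR-106b-25 cluster on chromosome 7, miR-93-5p and miR-106b-5p were lower as shares of miRNA, and no measured member passed as higher. miR-93-5p held 0.0544% and 0.0657% in supermeres, against 0.503%, 0.759% and 0.896% in sEV (log2 fold change -3.58, SE 0.80, edgeR adjusted p = 0.000583), lost without supermere B (edgeR adjusted p = 0.0726). miR-106b-5p held 0.00863% and 0.0149% in supermeres, against 0.131%, 0.145% and 0.137% in sEV (log2 fold change -3.57, SE 0.93, edgeR adjusted p = 0.00566). miR-25-3p, which has the seed AUUGCAC of miR-92a, held 0.575% and 0.693% in supermeres, against 0.168%, 0.278% and 0.272% in sEV and did not pass (log2 fold change 1.40, SE 0.69, edgeR adjusted p = 0.302). As a level miR-25-3p was at 419 and 112 CPM in supermeres, against 672, 652 and 678 CPM in sEV (log2 fold change -1.33, edgeR adjusted p = 0.46). By seed, 4 of 5 tested miRNAs with AAAGUGC were lower and 0 higher, 3 of 3 with AAUACUG were lower, and 1 of 4 with AUUGCAC was higher. Among all features 2.18% were higher and 3.13% lower within class.

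The choice of libraries did not use base composition. The GC content of the miRNA pool, weighted by counts, was 45.5% and 48.8% in supermeres, against 41.6%, 42.5% and 42.7% in sEV, with no overlap. Among the 87 miRNAs with at least 0.1% of miRNA, the median GC content was 54.5% in the 12 that were higher, 40.9% in the 44 that were lower and 47.6% in the 31 that did not pass. Across these 87 miRNAs GC content and log2 fold change had a Pearson r of 0.415 and a Spearman rho of 0.465, given as a description because miRNAs share libraries and families. Over all 577 tested miRNAs these were 0.316 and 0.290. Within the calls the values differed, with r of 0.205 and rho of 0.311 in the 44 lower and r of -0.284 and rho of -0.244 in the 31 that did not pass, and over all 75 lower miRNAs r was 0.0290 and rho 0.0524. The 87 were admitted by a share in either group, so higher and lower members entered through the group where they are high. Of the 12 higher miRNAs miR-335-5p had the lowest GC content, 30.4%. The part of base composition in these results was not tested.

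**Figure D4:**
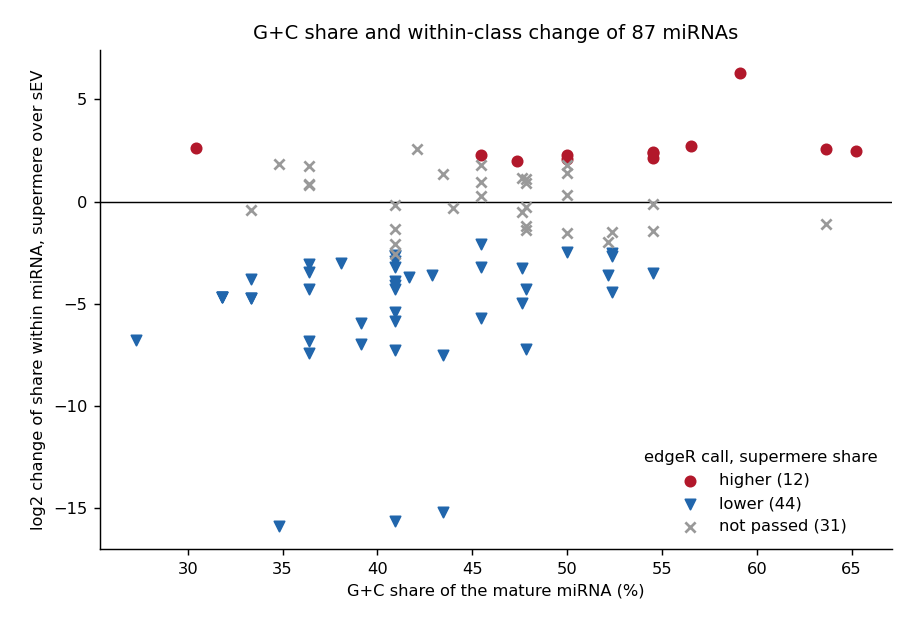
GC content of each of the 87 miRNAs (percent) against its log2 fold change of share within miRNA, supermere over sEV, coloured by whether it was higher, lower or did not pass. Higher miRNAs have a median of 54.5% GC and lower ones 40.9%, and the 3 points far below the rest are miRNAs with 0 counts in both supermere libraries, whose fold has no firm size.

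Other miRNA lists are given by their counts within miRNA, beside 2.18% higher and 3.13% lower over all features. Of 5 tested miRNAs reported high in supermeres or exomeres of this line, 3 were higher and 0 lower (median 2.45, log2). Of the 7 members of miR-10, miR-99, miR-100 and miR-125, 1 was lower and 0 higher, and of the 5 of miR-23, miR-24 and miR-27, 2 were lower, miR-27a-3p and miR-27b-3p. The call of miR-27a-3p was lost without supermere B (edgeR adjusted p = 0.0513) or C (0.385). miR-24-3p held 1.42% and 1.49% in supermeres, against 1.41%, 1.66% and 1.64% in sEV, which overlap (log2 fold change -0.11, SE 0.60, edgeR adjusted p = 1). miR-10a-5p, from the HOXB cluster, held 5.08% and 3.17% in supermeres, against 1.7%, 1.54% and 1.59% in sEV and did not pass (log2 fold change 1.36, SE 0.58, edgeR adjusted p = 0.178). Of 10 colorectal oncomiRs 5 were lower and 0 higher (median -3.03), of 8 members of miR-29 and miR-30 4 were lower and 0 higher (median -2.24), and of 11 of miR-17-92 and its paralogs 7 were lower and 1 higher (median -3.57).

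Markers of other cells were counted as well. The 10 miRNAs of blood cells, endothelium and liver summed to 40.1 and 3.63 CPM in supermeres, against 891, 544 and 515 CPM in sEV, with 7 and 7 members at 0 in supermeres, against 2, 0 and 2 in sEV. The 6 mesenchymal and muscle miRNAs summed to 9.17 and 21 CPM in supermeres, against 21.3, 51.1 and 44.3 CPM in sEV, with 5 and 4 members at 0 in supermeres, against 3, 4 and 2 in sEV. Of 7 tested blood cell, endothelial and liver miRNAs 3 were lower and 0 higher on library totals, and 2 were lower within miRNA. Among all features 3.98% were lower on library totals and 3.13% within class. miR-142-3p, a miRNA of blood cells, was at 0 CPM in both supermere libraries, against 250.5, 102 and 88.2 CPM in sEV and lower in both fits. miR-142-5p, from the other arm, held 0.00863% and 0.00299% in supermeres, against 0.148%, 0.174% and 0.16% in sEV (log2 fold change -4.71, SE 1.02, edgeR adjusted p = 0.00031), lost without supermere C (0.073). miR-126-3p, of endothelium, was lower on library totals alone, a call lost without supermere B (0.295) or C (0.645). miR-122-5p, the liver miRNA, was at 29.9 and 2.42 CPM in supermeres, against 15.6, 7.48 and 4.85 CPM in sEV, which overlap. None of the 3 tested mesenchymal and muscle miRNAs passed in either edgeR fit. The part of these markers in the results was not tested.

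The same comparison in flat culture had 3 libraries of each kind, from medium pools of 1360 mL. In the difference of the 2 comparisons, 3D minus 2D, 7 of 10 classes passed (70.0%), 2 higher (20.0%) and 5 lower (50.0%). Y RNA averaged 87.0% ± 9.31 in 3D supermeres and 20.4% ± 6.11 in 3D sEV, while 2D supermeres averaged 4.53% ± 0.378 and 2D sEV 13.2% ± 1.20 (SD, n = 2, 3, 3 and 3), and the difference was 3.63 ± 1.00 (SE, edgeR adjusted p = 0.000827). snRNA differed in the other direction, with 6.83% ± 5.04 in 3D supermeres and 9.16% ± 3.98 in 3D sEV, while 2D supermeres averaged 30.0% ± 19.1 and 2D sEV 1.28% ± 0.389, a difference of -4.97 ± 1.60 (SE, edgeR adjusted p = 0.00425). Culture and medium pools cannot be told apart here.

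Single features also differed between the cultures within their class. Of 8822 features 84 passed in the difference (0.952%), 24 higher (0.272%) and 60 lower (0.68%). miR-21-5p averaged 1.45% ± 0.952 in 3D supermeres and 16.0% ± 0.309 in 3D sEV, while it was 21.8% ± 1.05 in 2D supermeres and 20.5% ± 0.957 in 2D sEV, with a difference of -3.55 ± 0.70 (SE, edgeR adjusted p = 0.000129). miR-92a-3p averaged 15.3% ± 10.3 in 3D supermeres and 2.86% ± 1.24 in 3D sEV, while it was 1.19% ± 0.0878 in 2D supermeres and 2.38% ± 0.352 in 2D sEV, with a difference of 3.42 ± 0.74 (SE, edgeR adjusted p = 0.000804). In 2D alone 680 of 8822 features passed within their class (7.71%), and the log2 change of miR-21-5p was 0.09 ± 0.44 (SE, edgeR adjusted p = 0.944). miR-92a-3p did not pass in 2D either (edgeR adjusted p = 0.267). The tRNA and misc_RNA class differences between supermere and sEV did not pass a difference between cultures, at 1.46 ± 1.32 (SE, edgeR adjusted p = 0.268) and -2.12 ± 1.45 (SE, edgeR adjusted p = 0.17).

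**Figure D5:**
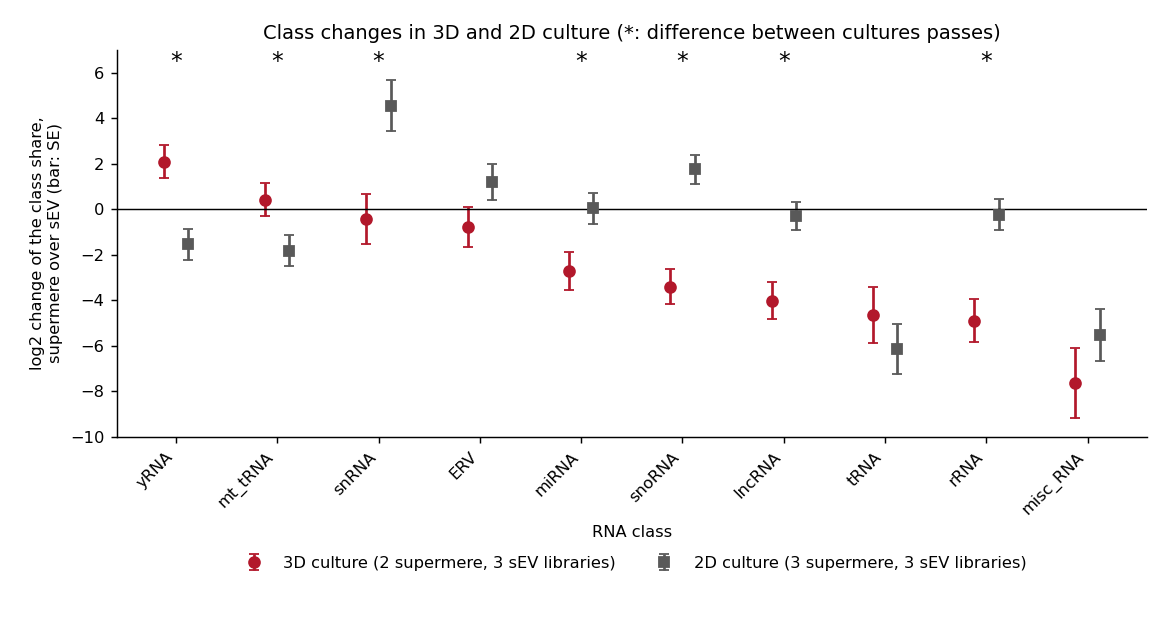
Log2 fold change of each class share, supermere over sEV, in 3D culture (2 and 3 libraries) and in 2D culture (3 and 3 libraries), with bars of 1 SE and a star where the difference between cultures passed. Y RNA lies at 2.09 in 3D and -1.54 in 2D, while tRNA and misc_RNA lie below 0 in both.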

How the data were processed

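Per the submitters' processing notes, reads were handled with cutadapt 4.5, FastQC 0.12.1 and Bowtie 1.3.1 on GRCh38.p13. The counting tool and annotation are not given in the sources used here. The deposited table holds expected counts of 22549 features in 38 libraries, not scaled between libraries, and 6.71% of its values are not whole (tolerance 1e-06), as when a read is divided among copies. They were rounded for the tests. RNA classes are the prefixes of the feature names.

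Tests used edgeR 4.0.16 in R 4.3.3 (robust quasi-likelihood, two-sided, Benjamini-Hochberg over all features tested, threshold 0.05). A single fit held 37 libraries and 11 group means, with library totals as sizes, 26 residual degrees of freedom and filterByExpr at a minimum count of 10. A second fit used class totals as offsets, for classes with at least 1000 counts in each of the 5 libraries, and another used class sums. The SE is that of the log2 fold change. For features at 0 in supermeres, folds are bounds against 3 counts over the group, and these cover counting error only, since PCR reads carry no molecular identifiers.

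Named features are the most abundant 3 per class (8 miRNAs), the 8 largest changes each way per fit with ranges that do not overlap and at least 50 CPM or 0.1% of the class, 1 per family, and up to 4 members of each list. The members and lists were chosen with earlier results of these data known. Alternatives were TMM and RLE factors, DESeq2 1.42.0, other filters, the 5 libraries alone, a replicate block, and leaving out each library. Sequences came from RefSeq (1388 of 1559 miRNA names matched), GENCODE v29 and the deposited table. Because 2 project numbers stand in the name of the table, sequencing batches may exist and cannot be told apart from groups.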

Additional observations from a re-analysis of the deposited data

Results flagged for a closer look

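Supermeres differed from sEV by another amount in 3D than in 2D culture for 7 RNA classes and 10 named features, by the test of the difference itself. On the scale of log2 fold changes, 3D minus 2D, the class differences were 3.63 for Y RNA, 2.23 for mitochondrial tRNA, -2.77 for miRNA, -3.74 for lncRNA, -4.67 for rRNA, -4.97 for snRNA and -5.15 for snoRNA. Both snoRNA and snRNA took a larger share in 2D supermeres than in 2D sEV, while in 3D snoRNA was lower and snRNA did not pass. Culture and medium pools cannot be told apart.

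Within miRNA the differences were 3.42 for miR-92a-3p, 3.85 for miR-375-3p, 3.97 for miR-25-3p, 4.68 for miR-99b-5p and -3.55 for miR-21-5p. miR-25-3p carries the seed of miR-92a-3p, and in 3D culture its share of miRNA was 0.575% and 0.693% in supermeres, against 0.168%, 0.278% and 0.272% in sEV, while its mean share was 0.0679% ± 0.0579 in 2D supermeres and 0.403% ± 0.0341 in 2D sEV (SD, n = 3 each). In 3D culture miR-99b-5p held 0.0498% and 0.0821% in supermeres, against 0.0135%, 0.0182% and 0.0188% in sEV, while its mean share was 0.00152% ± 0.000823 in 2D supermeres and 0.01% ± 0.0032 in 2D sEV.

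Among other classes the differences were -4.08 for RNY4P27, 4.29 for RNU5A-1, -12.66 for SNORD22, -7.32 for the mitochondrial valine tRNA TV and 6.77 for ENSG00000286171, the entry that spans RNY5. SNORD22 had no count in either 3D supermere library, so the size of its difference is not firm.

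The near-empty supermere A, which enters no comparison, held 31 counts of Y RNA among its 46 counts, above the 3 counts that would mark its floor.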

How the results depend on the processing

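Results were recomputed under 17 settings, and of 1603 checks of 130 named results 1416 kept their direction and side of the threshold, 187 lost the threshold and 0 turned round. Losses were most frequent when supermere C or supermere B was left out. Each of these leaves 1 supermere library, whose spread is then assumed to be like that of the other groups. Other settings lost calls too, with 18 lost under RLE factors and 10 under DESeq2. Leaving out sEV A, B or C lost 18, 15 and 16.

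The 362 calls on library totals became 545 (8 higher, 537 lower) with a minimum count of 50, 763 (34 higher, 729 lower) with the 5 libraries alone, and 95 to 309 without 1 library, with 95 without supermere C and 187 without supermere B. The 468 calls within class became 259 (72 higher, 187 lower) with TMM factors within class and 183 to 284 without 1 library, with 183 without either supermere library. The 84 calls of the culture difference became 159 (76 higher, 83 lower) with the UC supermere and sEV libraries alone and 51 to 76 without 1 library, with 51 without supermere B and 54 without supermere C.

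Of the 7 classes, the exact permutation test passes 0. Without 1 library the log2 change was -4.18 to -2.02 for miRNA (lowest in size without supermere C), -0.0334 to 0.83 for mitochondrial tRNA (below 0 without sEV A), -1.49 to 0.18 for snRNA (above 0 without supermere C), -2.36 to -0.0580 for ERV, -5.09 to -2.64 for snoRNA, -4.76 to -3.54 for lncRNA and -9.05 to -6.93 for misc_RNA, the last 4 largest in size without supermere B and smallest without supermere C. The causes of these changes were not tested beyond the smaller number of libraries.

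The labels do not say whether a shared replicate letter marks a shared pool. Deviations from group means correlated at -0.0127 for the pair B and at 0.0684 for the pair C. With 2 supermere libraries their deviations mirror each other, so these values are not separate. The unmatched pair of supermere B and sEV A gave 0.0684 as well, so the values cannot settle the pairing. With the letter as a replicate block, 364 features passed on library totals (5 higher, 359 lower), 371 within class (110 higher, 261 lower), 7 classes and 83 features in the culture difference, and 2 named calls were lost.

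Precision is limited by 2 supermere libraries and by 471 counts of misc_RNA and 2274 counts of snoRNA in supermere C.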

Other observations

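Other particle libraries of the 3D medium are given as values beside the supermeres, with no test. Y RNA averaged 87.0% ± 9.31 of counts in the 2 UC supermere libraries, 75.3% ± 8.73 in the 3 UC exomere libraries and 23.3% ± 10.2 in the 4 supermere libraries isolated by FPLC, a column chromatography, in which rRNA averaged 56.8% ± 35.0 (SD).

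SNORD33 averaged 74.4% ± 3.41 of snoRNA in UC supermeres, 48.3% ± 8.31 in UC exomeres and 66.5% ± 9.52 in FPLC supermeres (SD, n = 2, 3 and 4). miR-193a-5p averaged 0.126% ± 0.00944 of miRNA in UC supermeres, 0.103% ± 0.00142 in UC exomeres and 0.107% ± 0.0726 in FPLC supermeres.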
